A study of Mus musculus with 24 samples.

Results

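The integrins and laminins of the adult hippocampal niche were taken as the 32 mouse genes whose symbols name an integrin alpha or beta subunit (13 and 8 genes) or a laminin alpha, beta or gamma chain (5, 3 and 3 genes), of 48321 gene symbols in the deposited counts. They were measured in hippocampal GFP+ cells that had been sorted from adult C57BL/6 mice, in 3 pools of Notch2 CKO animals and 3 pools of wild type (WT) animals. The CKO animals were Notch2 flox/flox and the WT animals Notch2 wt/wt. Both carried Hes5::CreERT2, a tamoxifen-inducible Cre expressed from Hes5, a Notch target gene active in neural stem cells, and the Rosa26R-CAG::GFP reporter, and both received tamoxifen for 5 days followed by 1 day of chase. Recombination is therefore limited to cells that express Hes5, the sorted cells came from pools of animals whose number is not given, and each genotype was compared after the same drug. The comparison asks how Notch2 loss altered RNA levels in hippocampal stem cells, here for the genes with which a cell holds on to the matrix around it.

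Integrins are membrane receptors made of 1 alpha and 1 beta subunit, and the pairing decides which matrix protein is bound. Laminins are secreted trimers of an alpha, a beta and a gamma chain that build basement membranes and are ligands of several integrins. In the adult brain, laminin-rich basement membrane lies around blood vessels, and stem cells and astrocytes reach it with their processes. Integrin beta-1 is known for holding neural stem cells to that matrix, and the pair of alpha-v and beta-8 for releasing TGF-beta from its latent, matrix-bound form.

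The 6 pools held 40366579 to 53984963 reads in genes. At this depth 3 reads corresponded to 0.0525 to 0.0793 CPM, the read count scaled to counts per 1000000 reads at the TMM-adjusted library size. Of 16 markers of radial glia-like stem cells, 15 were above 1 CPM in every pool. Their summed level was 17605 to 27119 CPM in CKO pools and 20261 to 22160 CPM in WT pools. The exception was Nes, a stem cell filament gene, at 3.12, 5.46 and 4.26 CPM in CKO pools 1 to 3 and 6.36, 2.31 and 0.185 CPM in WT pools 1 to 3. Many of these markers are shared with astrocytes. The astrocyte markers summed to 11006 to 16916 CPM in CKO pools and 8354 to 11800 CPM in WT pools. The pools also held oligodendrocyte markers at a summed 3483 to 5876 CPM in CKO pools and 2544 to 6822 CPM in WT pools. Markers of oligodendrocyte precursors summed to 1880 to 4674 CPM in CKO pools and 2959 to 4275 CPM in WT pools. In bulk RNA of this kind, fewer cells of a type and less RNA per cell cannot be told apart. Notch2 itself had 65.1, 116 and 121 CPM in CKO pools 1 to 3 and 99.1, 146 and 302 CPM in WT pools 1 to 3, so the pools overlapped (log2 fold change CKO over WT -0.86, SE 0.45, adjusted p = 0.790 with edgeR). Reads of exons that recombination leaves in place count towards this gene as well. WT pool 3 held the highest level, and without it the log2 fold change of Notch2 was -0.29. That pool stood furthest from its group among the integrins and laminins too, over 4-fold from the mean of the other WT pools in 16 of 29 tested genes. It was above in 7, against 5.48% of all genes, and below in 9, against 20.4% of all genes. Several of the values that turn on it are also given without it.

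Across 21477 genes that passed the filter on low counts, 0 had an adjusted p under 0.05 in edgeR's quasi-likelihood test, a background of 0%, and 1269 (5.91%) had an unadjusted p under that value. Of the 32 integrin and laminin genes 29 passed the filter and 0 of them passed the adjusted threshold. At an unadjusted p under 0.05, 2 of the 29 were higher in CKO pools, against 3.01% of all genes, and 0 were lower, against 2.9% of all genes. Those genes were Itga5 and Itgb1. In 6 of the 29, all integrin subunits, every CKO pool lay above every WT pool, against 7.67% of all genes in that direction, and in 0 every CKO pool lay below, against 8.17%. With scaling by total reads in place of TMM, 1957 of all genes (9.11%) lay wholly above and 1322 (6.16%) wholly below, where TMM gave 1647 and 1755, while the counts among integrins and laminins were again 6 and 0. A log2 fold change above 0, higher in CKO pools, was found for 19 of the 29, against 47.2% of all genes. The median log2 fold change was 0.44 over the 19 integrin subunits tested, 0.03 over the 10 laminin chains tested and -0.06 over all genes.

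RNA of the family was carried by few genes. Set beside each other as CPM per kilobase of exon, Itgb1, Itgb8, Itgav and Itgb5 had the highest mean levels in both genotypes, followed by Lama2, Lamb2 and Itga6, with Lamb2 ahead of Lama2 in WT pools. In CKO pools the mean level per kilobase was 33.8 ± 5.96 for Itgb1, 16.4 ± 2.36 for Itgb8, 13.0 ± 1.34 for Itgav and 11.3 ± 1.55 for Itgb5. In WT pools it was 17.8 ± 5.57 for Itgb1, 12.2 ± 3.60 for Itgb8, 9.60 ± 1.41 for Itgav and 7.67 ± 4.33 for Itgb5 (SD, n = 3 pools each). Among these 4 genes the ranges of 1 SD around the means of neighbours in the order overlapped, except that Itgb1 stood clear of Itgb8 in CKO pools. In the order of all tested genes with a known exon length, Itgb1 ranked 1728 by the CKO mean and 3577 by the WT mean. In counts not divided by length, Itgb8, Itgav, Itgb1 and Lama2 together held 52.0% to 70.4% of the summed CPM of the 32 genes. By the mean over both genotypes, 14 genes were at 10 CPM or more, 12 between 1 and 10 CPM and 6 under 1 CPM.

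**Figure D1:**
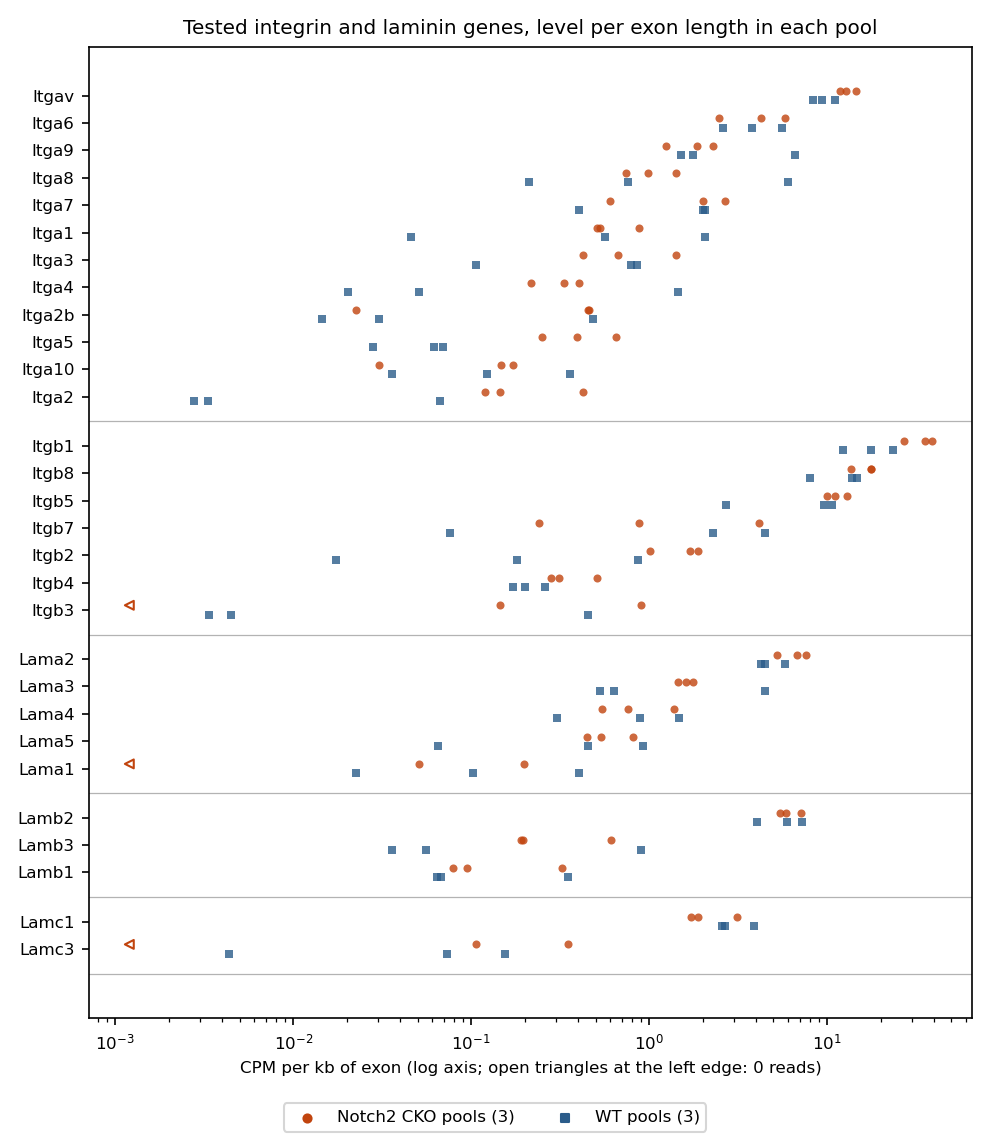
Level of each of the 29 tested genes in CPM per kilobase of exon (log axis), by chain class, with a circle for each of 3 Notch2 CKO pools, a square for each of 3 WT pools and an open triangle at the left edge for a pool with 0 reads. Itgb1 lies furthest to the right, with a mean of 33.8 in CKO pools and 17.8 in WT pools, and the genes of low level are spread over the widest range.

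Added over the 21 integrin subunits, the level was 645, 599 and 599 CPM in CKO pools 1 to 3 and 387, 506 and 509 CPM in WT pools 1 to 3. Every CKO pool was thus above every WT pool, and most of the level came from the beta-1, beta-8 and alpha-v subunits. Over the 11 laminin chains it was 180, 218 and 212 CPM in CKO pools 1 to 3 and 154, 199 and 195 CPM in WT pools 1 to 3, where CKO pool 1 lay within the range of the WT pools.

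Itgb1, on chromosome 8 (128685654 to 128733200, plus strand, GRCm38), encodes the beta subunit shared by most receptors for laminin, collagen and fibronectin. It had 144, 158 and 111 CPM in CKO pools 1 to 3, and 72.4, 95.3 and 49.8 CPM in WT pools 1 to 3. The lowest CKO pool was above the highest WT pool, and the mean was 138 ± 24.3 CPM in CKO pools and 72.5 ± 22.7 CPM in WT pools (SD, n = 3 pools each). The log2 fold change was 0.93 (SE 0.30, 95% interval 0.22 to 1.64), with an unadjusted p of 0.0175 and an adjusted p of 0.790 in edgeR. The exact two-sided permutation test gave p = 0.1, the smallest value that 3 pools against 3 allow. Each pool had been made into 2 libraries, numbered 1 and 2 in the labels. Itgb1 stood at 155, 96.0 and 90.1 CPM in library 1 of the CKO pools and at 46.9, 50.3 and 27.8 CPM in library 1 of the WT pools, so the genotypes were apart. In library 2 the CKO pools had 129, 211 and 127 CPM and the WT pools 87.2, 146 and 72.3 CPM, and here WT pool 2 was above CKO pools 1 and 3. Fitted from library 1 alone the log2 fold change was 1.46, and from library 2 alone 0.59.

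Itgav, on chromosome 2 (83724397 to 83806916, plus strand), encodes alpha-v, the subunit of receptors for vitronectin, fibronectin and latent TGF-beta. It had 138, 155 and 127 CPM in CKO pools 1 to 3, and 120, 100 and 89.7 CPM in WT pools 1 to 3. The groups did not overlap, although CKO pool 3 and WT pool 1 were close. The log2 fold change was 0.44 (SE 0.22, 95% interval -0.07 to 0.95, adjusted p = 0.790 in edgeR), and it was 0.13 from library 1 and 0.54 from library 2. Within each pool Itgav made up the largest share of the alpha subunits' summed level per kilobase, 48.6%, 62.0% and 48.3% in CKO pools 1 to 3 and 57.8%, 44.1% and 28.8% in WT pools 1 to 3. Those shares overlapped, and the low share of WT pool 3 went with high levels of Itga8 and Itga9 there.

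Of the beta subunits that pair with alpha-v besides beta-1, Itgb8 was the most abundant. It lies on chromosome 12 (119158022 to 119238802, minus strand), and its product pairs with alpha-v only. Its level was 196, 151 and 196 CPM in CKO pools 1 to 3, and 89.2, 162 and 153 CPM in WT pools 1 to 3. The pools overlapped, because CKO pool 2 lay below WT pools 2 and 3 (log2 fold change 0.42, SE 0.28, adjusted p = 0.800). The fold change was 0.87 from library 1, 0.16 from library 2, and 0.21 without WT pool 1. Itgb5, a vitronectin receptor subunit on chromosome 16 (33829665 to 33949338, plus strand), had 39.4, 35.3 and 46.2 CPM in CKO pools 1 to 3 and 34.0, 38.1 and 9.65 CPM in WT pools 1 to 3. WT pool 3 was the low one, and without it the log2 fold change of Itgb5 was 0.16 in place of 0.57 (SE 0.51, adjusted p = 0.825). Itgb3, the beta subunit of the platelet fibrinogen receptor and of a vitronectin receptor, had 0.858, 5.33 and 0 CPM in CKO pools 1 to 3 and 0.0197, 2.66 and 0.0264 CPM in WT pools 1 to 3. Itgb6, known from epithelia, did not pass the filter and reached its highest level in CKO pool 2 at 0.783 CPM, with 0 reads in WT pool 3. The ratio of Itgb8 to Itgav per kilobase was 0.944 to 1.504 in CKO pools and 0.725 to 1.65 in WT pools, so the WT range enclosed the CKO range. The ratio of Itgb1 to Itgav was 2.31 to 2.76 in CKO pools and 1.46 to 2.51 in WT pools (exact two-sided permutation p = 0.2).

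**Figure D2:**
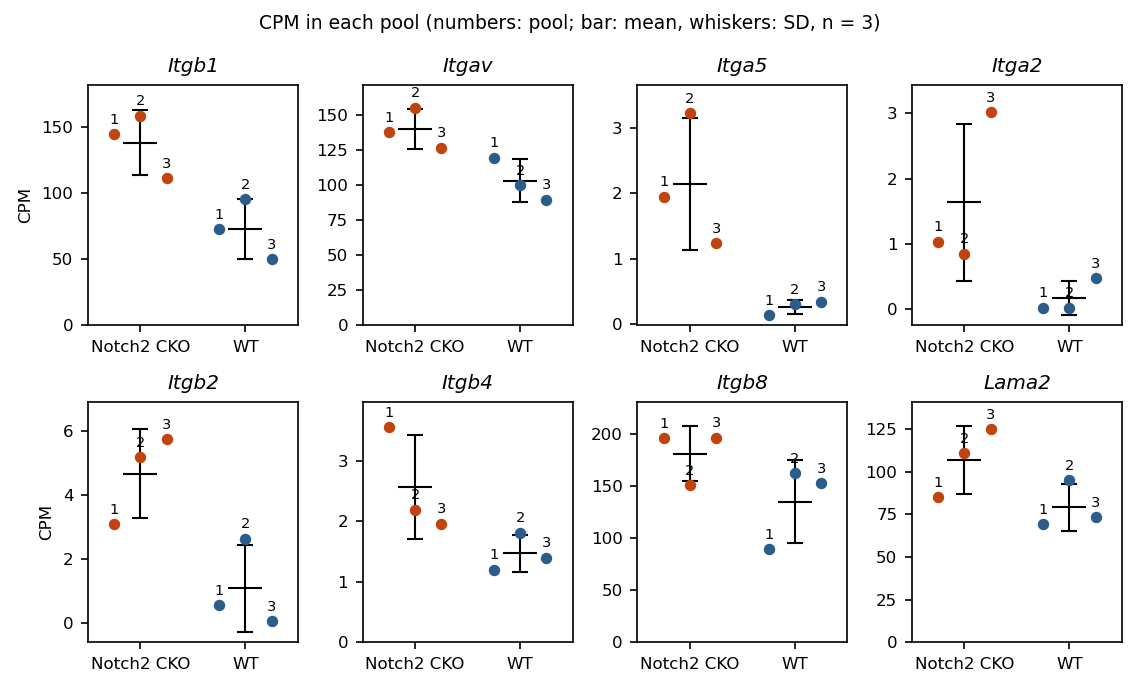
CPM of 8 genes in each pool on linear axes, with Notch2 CKO pools left of WT pools, pool numbers above the points, a bar at the mean and whiskers of 1 SD (n = 3 pools). In Itgb1, Itgav, Itga5, Itga2, Itgb2 and Itgb4 the lowest CKO pool is above the highest WT pool, while in Itgb8 and Lama2 the pools overlap.

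Itga5, on chromosome 15 (103344286 to 103366763, minus strand), encodes alpha-5, which joins beta-1 to form the main fibronectin receptor. Its level was low, 1.94, 3.22 and 1.24 CPM in CKO pools 1 to 3 and 0.138, 0.306 and 0.344 CPM in WT pools 1 to 3. The lowest CKO pool was well above the highest WT pool. The log2 fold change was 3.01 (SE 0.88, 95% interval 0.96 to 5.07), with an unadjusted p of 0.0102, an adjusted p of 0.790 in edgeR and an exact two-sided permutation p of 0.1. In reads, library 1 and library 2 held 2 and 109 in CKO pool 1, 98 and 46 in CKO pool 2, and 10 and 53 in CKO pool 3. In WT pools the corresponding reads were 6 and 1, 4 and 9, and 13 and 0. The reads thus came unevenly from the libraries of a pool, and in library 1 CKO pool 1 was below every WT pool and CKO pool 3 below WT pool 3. Leaving out each pool in turn gave log2 fold changes of 2.59 to 3.31.

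Itga2 encodes alpha-2, a collagen receptor subunit known from platelets and epithelia, on chromosome 13 (114833081 to 114932100, minus strand). It had 1.03, 0.851 and 3.02 CPM in CKO pools 1 to 3, and 0.0197, 0.0235 and 0.476 CPM in WT pools 1 to 3. WT pools 1 and 2 had 1 read each, under the floor of 3 reads, and WT pool 3 had 18, so the log2 fold change of 3.24 (SE 1.44, 95% interval -0.15 to 6.63, adjusted p = 0.790) has little behind it on the WT side. It was 2.46 to 6.09 on leaving out each pool in turn. Itga2b, another alpha subunit of platelets, which pairs with Itgb3, had 0.123, 2.51 and 2.47 CPM in CKO pools 1 to 3 and 2.64, 0.165 and 0.0793 CPM in WT pools 1 to 3. Here CKO pool 1 was low and WT pool 1 high, against the rest of their groups. Of 6 platelet markers, Itga2b among them, 4 (Ppbp, Gp9, Gp1ba and Treml1) had 0 reads in at least 1 pool, and the summed level was 12.6 to 30.3 CPM in CKO pools and 12.7 to 17.1 CPM in WT pools. Both Itga2 and these markers were highest in CKO pool 3. The part of such cells in the Itga2 values was not tested.

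The stretches from 250 bases before to 50 bases after the annotated start are shown for those 4 subunits whose CKO pools lay above the WT pools and for which RefSeq (GRCm38.p6) gave a window. They are chr8:128685404-128685703 on the plus strand for Itgb1, chr2:83724147-83724446 on the plus strand for Itgav, chr15:103366742-103367041 on the minus strand for Itga5 and chr13:114932051-114932350 on the minus strand for Itga2. Capitals mark the GC box, GGGCGG, or its reverse complement, CCGCCC.
Itgb1: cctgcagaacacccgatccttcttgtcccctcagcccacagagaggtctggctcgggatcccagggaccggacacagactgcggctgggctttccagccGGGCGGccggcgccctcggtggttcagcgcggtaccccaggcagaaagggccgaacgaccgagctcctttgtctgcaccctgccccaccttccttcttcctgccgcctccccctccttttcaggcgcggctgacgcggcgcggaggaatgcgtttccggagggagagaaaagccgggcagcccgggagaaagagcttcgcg
Itgav: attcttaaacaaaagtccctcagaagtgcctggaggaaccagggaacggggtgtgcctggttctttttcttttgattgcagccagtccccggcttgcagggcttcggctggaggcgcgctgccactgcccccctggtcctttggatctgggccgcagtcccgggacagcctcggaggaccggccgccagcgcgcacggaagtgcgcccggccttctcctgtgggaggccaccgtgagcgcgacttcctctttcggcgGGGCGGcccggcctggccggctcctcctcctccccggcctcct
Itga5: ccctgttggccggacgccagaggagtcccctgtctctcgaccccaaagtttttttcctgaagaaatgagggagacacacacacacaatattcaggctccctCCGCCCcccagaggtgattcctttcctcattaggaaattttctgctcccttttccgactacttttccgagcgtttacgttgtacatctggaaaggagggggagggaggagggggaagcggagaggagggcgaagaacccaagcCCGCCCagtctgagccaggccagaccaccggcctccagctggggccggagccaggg
Itga2: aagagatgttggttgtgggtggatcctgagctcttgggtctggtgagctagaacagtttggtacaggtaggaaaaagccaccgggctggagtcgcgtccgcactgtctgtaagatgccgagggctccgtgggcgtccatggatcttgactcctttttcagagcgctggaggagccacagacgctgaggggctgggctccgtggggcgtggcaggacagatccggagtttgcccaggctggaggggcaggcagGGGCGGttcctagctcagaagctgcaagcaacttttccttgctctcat

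The GC box was searched on both strands and occurred once in the windows of Itgb1, Itgav and Itga2 and at 2 places in that of Itga5. It was present in 11 of 24 windows of the 21 integrin and laminin genes with an entry (45.8%) and in 35.7% of all 32851 windows. The core that the Notch partner Rbpj binds, TGGGAA on either strand, was in 5 of the 24 windows (20.8%), those of Itga2b, Lama2, Lamb1 and Lamb3, and in 25.6% of all windows. It was in none of the 4 windows printed. The longer form CGTGGGAA was in 0 of the 24 and in 0.734% of all windows. These are matches of letters in a short window and say nothing of binding. The median GC content was 59.2% in the 24 windows and 52.7% in all.

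The laminin-binding alpha subunits did not separate the genotypes. Itga6, which pairs with beta-1 or beta-4 and is a surface marker of many stem cells, lies on chromosome 2 (71745616 to 71858416, plus strand). It had 38.6, 22.4 and 52.3 CPM in CKO pools 1 to 3, and 23.6, 50.1 and 34.0 CPM in WT pools 1 to 3 (log2 fold change 0.07, SE 0.43, adjusted p = 0.970 in edgeR). The highest pool was CKO pool 3 and the lowest CKO pool 2, so the spread within the CKO group took in all WT pools. Itga7, known as the laminin receptor of muscle, had 21.6, 4.86 and 16.2 CPM in CKO pools 1 to 3 and 16.2, 16.7 and 3.28 CPM in WT pools 1 to 3. Itga3, a receptor for several laminins, had 8.07, 2.44 and 3.83 CPM in CKO pools 1 to 3 and 4.54, 4.87 and 0.608 CPM in WT pools 1 to 3. In both genes WT pool 3 was the lowest of the 6, and 1 CKO pool was low as well. Itgb4, which pairs with Itga6 in the anchoring junctions of epithelia, lies on chromosome 11 (115974709 to 116008412, plus strand). Its level was 3.55, 2.19 and 1.96 CPM in CKO pools 1 to 3 and 1.20, 1.81 and 1.40 CPM in WT pools 1 to 3. Its pools did not overlap, but CKO pool 3 and WT pool 2 were almost level, and the log2 fold change of 0.80 had an SE of 0.68 (adjusted p = 0.819). Neither library alone kept the genotypes apart. In library 1 CKO pools 1 and 3 were below every WT pool, and in library 2 CKO pool 2 was below WT pools 2 and 3. Itgb4 overlaps the gene B230344G16Rik on the other strand, and the libraries do not mark strand.

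**Figure D3:**
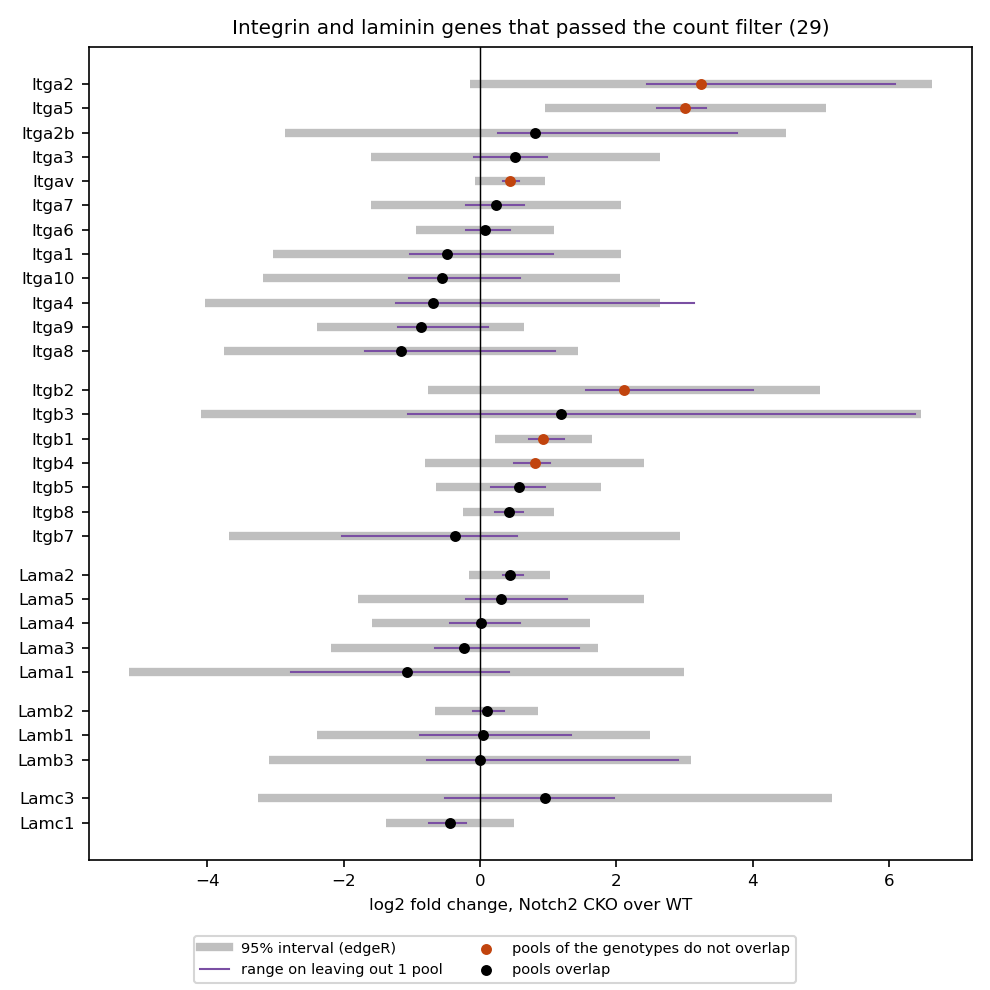
Log2 fold change, Notch2 CKO over WT, of the 29 genes tested, with the 95% interval of edgeR as a grey bar and the range on leaving out 1 pool as a purple line. Orange points are the 6 integrin subunits whose pools do not overlap, and Itga5 and Itgb1 are the 2 genes whose interval lies wholly above 0.

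The other collagen receptor subunits, all partners of beta-1, overlapped between the genotypes. Itga1, which overlaps Pelo, had 16.3, 9.51 and 9.89 CPM in CKO pools 1 to 3 and 0.849, 10.5 and 38.5 CPM in WT pools 1 to 3. Its 1457 reads in WT pool 3 all came from library 2, with 0 in library 1, and the log2 fold change of -0.48 (SE 1.08, adjusted p = 0.923) was 1.07 without that pool. Itga10, a cartilage collagen receptor subunit, had 0.893, 0.157 and 0.766 CPM in CKO pools 1 to 3 and 1.86, 0.636 and 0.185 CPM in WT pools 1 to 3. Those ranges overlapped at low levels, and the libraries were over 4-fold apart in 5 of the 6 pools. Libraries 1 and 2 held 47 and 4 reads of Itga10 in CKO pool 1 and 0 and 94 in WT pool 1. The log2 fold change of -0.56 (SE 1.11) was 0.58 without WT pool 1. Itga11 did not pass the filter and reached its highest level in CKO pool 2 at 0.313 CPM, with 0 reads in CKO pool 1.

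WT pool 3 was also the high one in 3 further alpha subunits whose ligands are neither collagens nor laminins. Itga8, a receptor subunit for nephronectin and other proteins with an RGD sequence, had 10.4, 7.27 and 5.44 CPM in CKO pools 1 to 3 and 1.56, 5.60 and 44.4 CPM in WT pools 1 to 3. Itga9, which binds tenascin-C, had 14.3, 17.6 and 9.56 CPM in CKO pools 1 to 3 and 11.6, 13.6 and 50.5 CPM in WT pools 1 to 3. Itga4, which binds VCAM1 and fibronectin and is known from blood cells, had 4.62, 3.02 and 5.61 CPM in CKO pools 1 to 3 and 0.711, 0.283 and 20.4 CPM in WT pools 1 to 3. In each of them WT pool 3 was above all other pools, and in Itga4 the other WT pools lay below all CKO pools. Without WT pool 3 the log2 fold change was 1.10 in place of -1.16 for Itga8, 0.12 in place of -0.87 for Itga9 and 3.14 in place of -0.69 for Itga4. Of the Itga4 reads of WT pool 3, 761 came from library 2 and 12 from library 1.

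The beta subunits of white blood cells were low. Itgb2, the beta subunit of the leukocyte integrins, which microglia carry, lies on chromosome 10 (77530252 to 77565708, plus strand). It had 3.10, 5.19 and 5.75 CPM in CKO pools 1 to 3, and 0.553, 2.64 and 0.0529 CPM in WT pools 1 to 3. The pools did not overlap, yet of the reads of CKO pool 2, 230 were in library 1 and 2 in library 2, and the log2 fold change of 2.11 had an SE of 1.22 (adjusted p = 0.794 in edgeR). It was 1.55 to 4.0 on leaving out each pool in turn. The 12 microglia markers summed to 316, 310 and 834 CPM in CKO pools 1 to 3 and 397, 354 and 432 CPM in WT pools 1 to 3, 8 of them were above 1 CPM in every pool, and Aif1 was at 0 in at least 1. Only CKO pool 3 was high in these markers, and their part in the Itgb2 values was not tested. Itgam, the alpha partner of Itgb2 in microglia and macrophages, had 0.175, 4.14 and 1.69 CPM in CKO pools 1 to 3 and 0.395, 0.730 and 0.0793 CPM in WT pools 1 to 3. Itgb7, which pairs with alpha-4 on lymphocytes, had 2.43, 11.5 and 0.667 CPM in CKO pools 1 to 3 and 6.34, 0.212 and 12.4 CPM in WT pools 1 to 3, with no order between the genotypes.

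Of the laminin chains, Lama2 was the most abundant alpha chain. It lies on chromosome 10 (26980036 to 27619758, minus strand) and is the chain of muscle basement membrane and of that which astrocytes lay down around vessels. Its level was 85.0, 111 and 125 CPM in CKO pools 1 to 3, and 69.1, 94.8 and 73.3 CPM in WT pools 1 to 3. Only CKO pool 1 and WT pool 2 crossed, and the log2 fold change was 0.43 (SE 0.25, 95% interval -0.16 to 1.03, adjusted p = 0.794), with 0.30 from library 1 and 0.45 from library 2. Lama2 made up 66.4%, 62.9% and 72.4% of the alpha chains' level per kilobase in CKO pools 1 to 3, and 76.3%, 69.5% and 41.1% in WT pools 1 to 3. The low share of WT pool 3 went with Lama3, the alpha chain of epithelial anchoring laminin, which had 15.6, 18.8 and 17.3 CPM in CKO pools 1 to 3 and 5.66, 6.85 and 48.1 CPM in WT pools 1 to 3. With the libraries summed, Lama3 was even across the CKO pools, all of which lay between WT pool 3 and the other WT pools. Libraries 1 and 2 had 5.24 and 24.5 CPM in CKO pool 1 and 3.33 and 28.8 CPM in CKO pool 3. Those of CKO pool 2 were close to each other. In library 1, CKO pools 1 and 3 lay below every WT pool. The log2 fold change of Lama3 was -0.23 (SE 0.83) and 1.46 without WT pool 3. It was -1.76 from library 1 alone and 0.80 from library 2 alone.

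Lama4 and Lama5, the alpha chains of vascular basement membrane, overlapped between the genotypes. Lama4 had 6.55, 16.7 and 9.23 CPM in CKO pools 1 to 3 and 3.67, 10.7 and 17.8 CPM in WT pools 1 to 3 (log2 fold change 0.01, SE 0.68). Lama5 had 5.08, 9.22 and 6.10 CPM in CKO pools 1 to 3 and 5.19, 10.5 and 0.740 CPM in WT pools 1 to 3, and its log2 fold change of 0.31 (SE 0.89) was -0.21 without WT pool 3. Of the 12 endothelial markers 0 were above 1 CPM in every pool, Cdh5, Tie1, Ly6c1, Emcn and Esam were at 0 in at least 1 pool, and the summed level was 19.3 to 43.0 CPM in CKO pools and 18.8 to 148 CPM in WT pools. The mural markers summed to 170 to 202 CPM in CKO pools and 208 to 294 CPM in WT pools, with Kcnj8, Abcc9, Des and Higd1b at 0 in at least 1 pool. The sum of the mural markers was thus lower in every CKO pool, while 0 of the 11 tested had all CKO pools below all WT pools, and the part of vessel cells in the laminin values was not tested. Lama1, an embryonic alpha chain, had 1.93, 0.492 and 0 CPM in CKO pools 1 to 3 and 0.217, 0.989 and 3.91 CPM in WT pools 1 to 3. Its log2 fold change of -1.08 (SE 1.73) was 0.42 without WT pool 3.

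A single chain dominated the beta class, and Lamc1 was the more abundant of the gamma chains described. Lamb2, the beta chain of vessel and synaptic basement membranes, lies on chromosome 9 (108479736 to 108490530, plus strand). It had 33.1, 43.2 and 36.0 CPM in CKO pools 1 to 3, and 36.1, 44.0 and 24.7 CPM in WT pools 1 to 3 (log2 fold change 0.10, SE 0.32, 95% interval -0.66 to 0.86, adjusted p = 0.946 in edgeR). The pools of the genotypes were interleaved. Lamb2 was 85.4% to 96.1% of the beta chains' level per kilobase in CKO pools and 88.2% to 98.3% in WT pools. Lamc1, the gamma chain of most laminins, on chromosome 1 (153218922 to 153332786, minus strand), had 25.9, 15.6 and 14.2 CPM in CKO pools 1 to 3, and 32.3, 21.1 and 22.0 CPM in WT pools 1 to 3. CKO pools 2 and 3 lay below all WT pools and CKO pool 1 within them. Its log2 fold change was -0.44 (SE 0.40, 95% interval -1.38 to 0.49, adjusted p = 0.824). From library 1 alone it was only -0.00821, and from library 2 alone -0.59. Among the integrins and laminins Lamc1 was the only gene whose fold change stayed below 0 in every alternative tried.

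The remaining chains described were low. Lamb1, the beta chain of most early laminins, had 3.22, 0.940 and 0.785 CPM in CKO pools 1 to 3 and 0.671, 0.636 and 3.49 CPM in WT pools 1 to 3. Lamb3, the beta chain of epithelial anchoring laminin, had 4.03, 1.30 and 1.26 CPM in CKO pools 1 to 3 and 0.237, 5.98 and 0.370 CPM in WT pools 1 to 3. In both, 1 WT pool was high and the others were under 1 CPM, and which pool was high differed between the genes. Lamc3, a gamma chain of brain and retina, had 0, 0.649 and 2.12 CPM in CKO pools 1 to 3 and 0.947, 0.447 and 0.0264 CPM in WT pools 1 to 3, and overlapped.

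**Figure D4:**
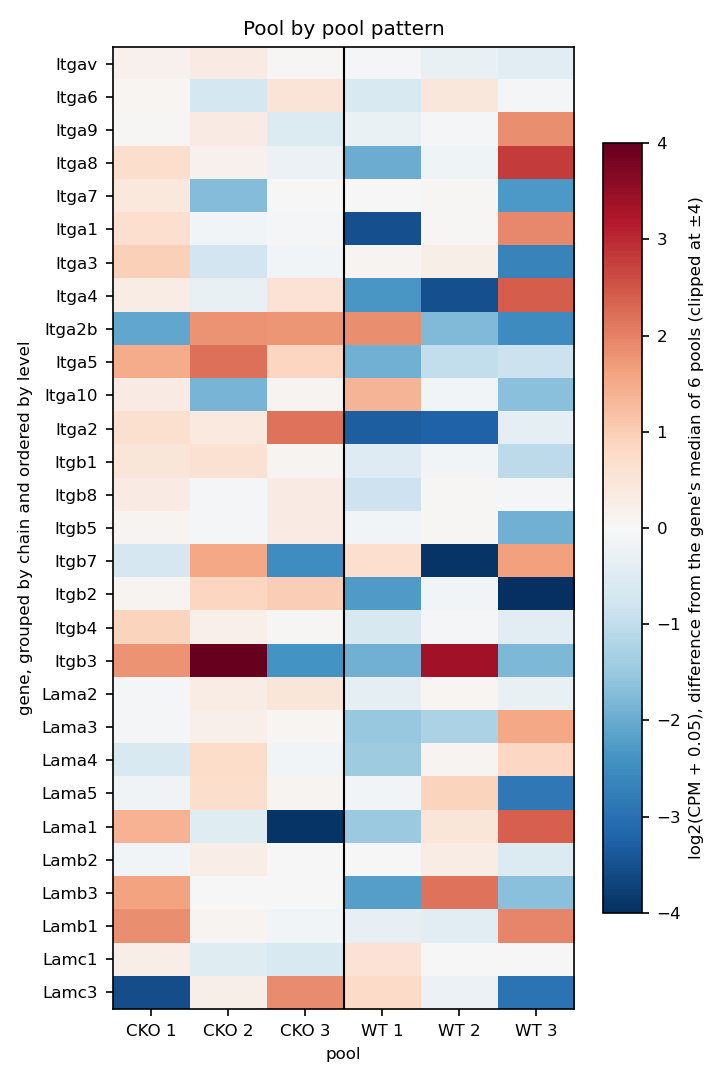
Each of the 29 tested genes in each pool, with Notch2 CKO pools left of WT pools, as the difference of log2(CPM + 0.05) from that gene's median of 6 pools, red above and blue below. The abundant genes at the top of each chain class are pale, and WT pool 3 holds both dark red cells, such as Itga8 with 44.4 CPM, and dark blue ones, such as Itgb2 with 0.0529 CPM.

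The genes in which WT pool 3 stood apart lay on both sides. In 7 of the 29 genes it was over 4-fold above the mean of the other WT pools (Itga1, Itga2, Itga4, Itga8, Lama1, Lama3 and Lamb1), against 5.48% of all genes. In 9 it was over 4-fold below that mean (Itga10, Itga2b, Itga3, Itga7, Itgb2, Itgb3, Lama5, Lamb3 and Lamc3), against 20.4% of all genes. The abundant subunits Itgb1, Itgb8, Itgav and Lama2 were not among these genes. Of the 29 genes, 9 had their highest value of all 6 pools in WT pool 3 and 9 their lowest, against 24.5% and 28.8% of all genes. WT pool 1 held the highest value in 3 and the lowest in 10, against 25% and 21.2% of all genes. It was over 4-fold above the mean of the other WT pools in 2 of the 29 and below it in 8, against 4.65% and 9.94%. The label of each pool also carries a tag of unstated meaning, which was 2K for WT pool 3, 4K to 19K for the CKO pools and 12K or 20K for the other WT pools. Without WT pool 3 the median log2 fold change of the integrins and laminins tested was 0.41, and 9 of 30 lay wholly above WT, against 13.7% of all genes when 3 pools are set against 2.

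The libraries of a pool showed how well a level was measured. For the 14 genes with a mean of at least 10 CPM, the libraries were over 4-fold apart in 16 of 84 pairs of gene and pool (19.05%). For the 15 tested genes of lower level it was 39 of 90 (43.3%).

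**Figure D5:**
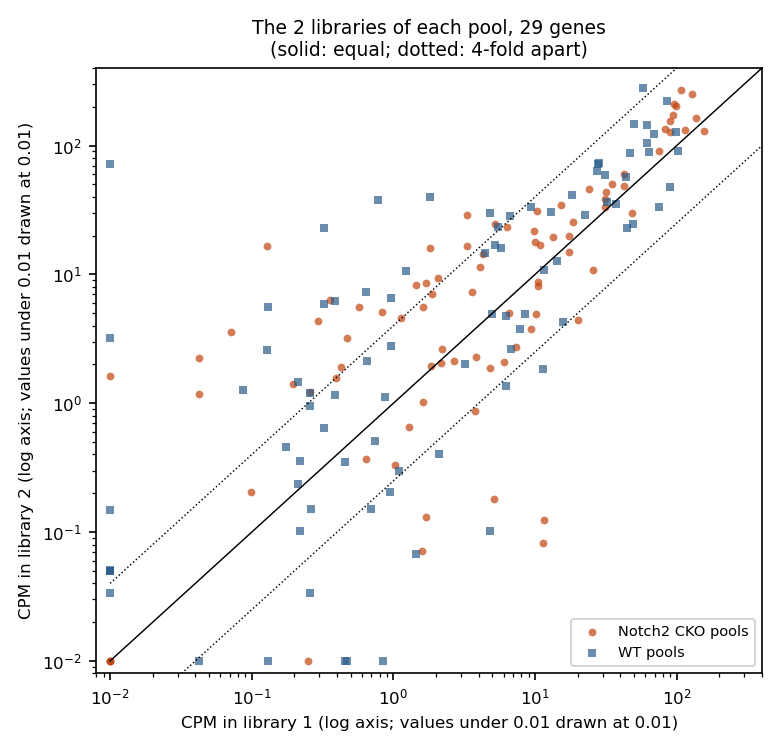
CPM in library 2 against CPM in library 1 of the same pool, both on log axes, for the 29 tested genes in 3 Notch2 CKO pools (circles) and 3 WT pools (squares), with points of 0 reads drawn at the edge. Points at high levels lie mostly between the dotted lines, which mark 4-fold, and Itga1 in WT pool 3 is the highest point at the left edge, with 0 reads in library 1 and 1457 in library 2.

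Proteins that link integrins to the cell interior had more values above 0 than below. Of 35 genes of focal adhesion and integrin activation, 25 had a log2 fold change above 0 (47.2% of all genes did). At an unadjusted p under 0.05, 3 were higher in CKO pools and 0 lower, against 3.01% and 2.9% of all genes. In 5 of the 35 every CKO pool lay above every WT pool and in 0 below, against 7.67% and 8.17% of all genes. Rap1b, a small GTPase that switches integrins on, had 30.4, 46.6 and 77.1 CPM in CKO pools 1 to 3 and 17.6, 11.3 and 15.97 CPM in WT pools 1 to 3. Fermt2, the kindlin that binds beta tails in most tissues, had 322, 304 and 375 CPM in CKO pools 1 to 3 and 235, 272 and 196 CPM in WT pools 1 to 3. Fermt3, the kindlin of blood cells and microglia, had 3.26, 4.61 and 8.38 CPM in CKO pools 1 to 3 and 1.88, 1.93 and 1.72 CPM in WT pools 1 to 3. All 3 genes were without overlap between the genotypes. As in each adhesion list, they were named for having the smallest unadjusted p, so this separation is no evidence about the list. The log2 fold changes were 1.78 (SE 0.43) for Rap1b, 0.51 (SE 0.21) for Fermt2 and 1.55 (SE 0.64) for Fermt3. Each had an adjusted p of 0.790 in edgeR. None of the 35 genes passed the adjusted threshold there, whereas DESeq2's Wald test, which called 129 of all genes (0.601%), called Rap1b.

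Laminin receptors other than integrins, listed together with genes of the dystrophin complex, had no common direction. The 3 genes named below are parts of that complex and not laminin receptors themselves. Of 24 genes tested in this list, 12 were above 0. At an unadjusted p under 0.05, 2 were higher and 0 lower, against 3.01% and 2.9% of all genes. Sgca, a sarcoglycan of the dystrophin complex, had 1.42, 1.39 and 2.85 CPM in CKO pools 1 to 3 and 0.178, 0.0471 and 0.0264 CPM in WT pools 1 to 3. Sntb1, a syntrophin of the same complex, had 5.43, 5.86 and 8.01 CPM in CKO pools 1 to 3 and 0.138, 1.86 and 0.423 CPM in WT pools 1 to 3. Both were low and did not overlap. The more abundant sarcoglycan Sgcb had 179, 145 and 228 CPM in CKO pools 1 to 3 and 115, 159 and 137 CPM in WT pools 1 to 3, and overlapped. Of 38 tested genes of other basement membrane proteins and integrin ligands, 18 were above 0. At an unadjusted p under 0.05, 1 was higher and 2 were lower, against the same shares of all genes. Frem1, a basement membrane protein, had 6.27, 10.4 and 9.60 CPM in CKO pools 1 to 3 and 1.28, 2.45 and 1.22 CPM in WT pools 1 to 3. Its relative Frem2 had 12.1, 4.83 and 12.3 CPM in CKO pools 1 to 3 and 18.3, 21.2 and 26.3 CPM in WT pools 1 to 3. The 2 genes thus lay on opposite sides, with log2 fold changes of 2.41 (SE 0.60) for Frem1 and -1.17 (SE 0.48) for Frem2, each at an adjusted p of 0.790 in edgeR. DESeq2 called Sgca and Frem1. The collagen gene Col1a2 was at 0.353 to 0.403 CPM in CKO pools and at 0.572, 1.25 and 12.8 CPM in WT pools 1 to 3, the last of them again WT pool 3, and its log2 fold change of -3.67 was -1.26 without that pool.

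The 16 genes of TGF-beta held and released by integrins were divided, 8 above 0. Ltbp1, which ties latent TGF-beta to the matrix, had 89.8, 57.2 and 67.1 CPM in CKO pools 1 to 3 and 102, 109 and 150 CPM in WT pools 1 to 3. Each CKO pool was below each WT pool (log2 fold change -0.75, SE 0.28, adjusted p = 0.790 in edgeR), but the value was 0.21 from library 1 and -1.24 from library 2. The receptor gene Tgfbr1 had 54.3, 50.3 and 30.1 CPM in CKO pools 1 to 3 and 8.98, 39.7 and 25.9 CPM in WT pools 1 to 3. Its pools overlapped, as did those of Ltbp4, whose log2 fold change of -1.47 (SE 1.11) was 0.12 without WT pool 3.

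Tetraspanins and other membrane proteins that bind integrins were mostly below 0, with 4 of 15 above it, against 47.2% of all genes. At an unadjusted p under 0.05, 2 were lower and 0 higher, against 2.9% and 3.01% of all genes. Bsg, or basigin, had 656, 597 and 713 CPM in CKO pools 1 to 3 and 1467, 849 and 1010 CPM in WT pools 1 to 3. Cd9 had 660, 707 and 638 CPM in CKO pools 1 to 3 and 1310, 884 and 786 CPM in WT pools 1 to 3. Neither overlapped, with log2 fold changes of -0.76 (SE 0.24) for Bsg and -0.57 (SE 0.24) for Cd9, while Cd81 at -0.32 (SE 0.21) did overlap. Among 22 tested matrix proteases and their inhibitors 14 were above 0. At an unadjusted p under 0.05, 1 was higher and 1 lower, against the same shares of all genes. The sheddase Adam10 had 102, 137 and 87.5 CPM in CKO pools 1 to 3 and 41.8, 77.9 and 48.9 CPM in WT pools 1 to 3. Plat, the tissue plasminogen activator, had 81.1, 66.9 and 59.1 CPM in CKO pools 1 to 3 and 83.8, 134 and 183 CPM in WT pools 1 to 3. These 2 genes were without overlap and on opposite sides, and Timp4, an inhibitor of metalloproteases, overlapped at a log2 fold change of -0.42 (SE 0.24). Every gene named in the adhesion lists had an adjusted p of at least 0.790 in edgeR. Of 7 further integrin and integrin-like genes whose symbols the pattern does not cover, 4 were tested. Besides Itgam, the subunit gene Itgae had a log2 fold change of 0.93 (SE 1.45). Itgbl1, which encodes a beta-like protein and not a subunit, had one of 2.07 (SE 1.38). Itgae and Itgbl1 had mean levels under 2 CPM in both genotypes.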

How the data were processed

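RNA of sorted, pooled cells was made into cDNA with Smart-Seq2 and into libraries with Nextera XT, which do not mark strand. The authors deposited 24 tables, 1 per run, of unnormalised read counts by gene symbol. Bowtie2, HTSeq and the build GRCm38 are named in the submitters' processing notes. The sources used here give no versions, annotation or HTSeq settings. Of all reads per pool, 16.0% to 35.3% lay outside annotated genes, 11.2% to 21.7% were not aligned and 2.51% to 3.43% were ambiguous. Neither these nor the other summary lines entered library sizes or tests. Of the 32 genes, 17 overlap another annotated gene, so some of their reads may have been set aside as ambiguous or come from the neighbour.

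The labels assign the runs to 6 pools, each with 2 libraries run on lanes 4 and 5. Lanes agreed within sampling noise (chi-square over degrees of freedom 0.985 to 1.01) and were summed. Libraries of 1 pool did not (71.5 to 354), but as repeat measurements of that pool they were summed too, so n = 3 per genotype. The labels do not state that the pools came from separate animals, and the p-values cover only the variation among these pools. Reads carry no molecular identifiers.

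The comparison was made with edgeR 4.0.16 (R 4.3.3) over the whole table: genes kept by filterByExpr, TMM scaling, robust quasi-likelihood F test without covariate, Benjamini-Hochberg adjustment over 21477 genes, threshold 0.05. Fold changes and intervals come from this fit. Exact two-sided permutation tests used log2 CPM with a pseudocount of 0.05. Exon lengths and positions came from GENCODE M21 (GRCm38), in which 96.2% of tested symbols had a single gene entry and so an exon length. The script was tested on simulated data. Alternatives were DESeq2 1.42.0, voom in limma 3.58.1, other scalings, no filter, a replicate block, each library alone and each pool left out.

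The text names the genes of the symbol pattern, of which 1 is not reported here, the 3 genes with the smallest unadjusted p in each of 7 adhesion lists, Notch2, Nes and cell type marker lists by their sums. The genes, the lists and the tests were chosen with earlier results of these data known.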

Additional observations from a re-analysis of the deposited data

How the results depend on the processing

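Under every alternative 0 integrin or laminin genes passed the adjusted threshold of 0.05. Of all genes 0 passed it in edgeR and limma voom, and 129 passed it with DESeq2's Wald test, where the smallest adjusted p of an integrin or laminin gene was 0.0872. The number of integrin and laminin genes whose CKO pools lay wholly above the WT pools was 6 under the other scalings, 3 in library 1 alone (Itga7, Itgb1 and Itgb8), 5 in library 2 alone (Itga2, Itga5, Itgav, Itgb5 and Lama5) and 6 to 9 on leaving out 1 pool. Over all genes the share was 7.67% in the full fit, 8.34% in library 1, 6.39% in library 2 and 11.4% to 16.3% on leaving out 1 pool. The causes of these shifts were not tested. At an unadjusted p under 0.05 the number higher in CKO pools was 2 in the full fit, 4 with voom, 1 in library 2 alone, 1 without CKO pool 1 or CKO pool 2, 4 without WT pool 2 and 5 without WT pool 3. The share of all genes under that p, in either direction, was 5.91% in the full fit, 6.1% with voom, 3.47% in library 2, 3.24% without CKO pool 1, 3.34% without CKO pool 2, 10.4% without WT pool 2 and 8.43% without WT pool 3.

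Of the 29 tested genes, 11 kept the sign of their log2 fold change under every alternative that could be fitted. They were Itga2, Itga2b, Itga5, Itgav, Itgb1, Itgb2, Itgb4, Itgb5, Itgb8 and Lama2 above 0 and Lamc1 below it. The other 18 genes changed sign at least once, 56 of 396 values in all. With voom the values of opposite sign were Itga1 0.96, Itga4 2.73, Itga6 -0.0591, Itga8 0.58, Itgb3 -0.31, Itgb7 1.32, Lama3 0.98, Lamb2 -0.0927, Lamb3 0.34 and Lamc3 -1.70. Library 1 alone gave Itga1 1.38, Itga3 -0.10, Itga4 1.44, Itgb7 0.96, Lama1 0.12, Lama5 -0.57 and Ltbp1 0.21. Library 2 alone gave Itga7 -0.28, Lama3 0.80, Lama4 -0.25, Lamb1 -0.0327, Lamb2 -0.00541, Lamb3 0.27 and Sgcb -0.0418. Lamb3 was also 0.0593 with total reads and 0.0256 without the filter.

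The deviations of same-numbered pools correlated at 0.0559, 0.0218 and -0.028, and those of differently numbered pools at -0.0872 to 0.0539. Same-numbered pools thus did not stand apart, but 3 pools per genotype cannot decide whether pool numbers pair the genotypes. With the pool number as a replicate block 0 genes passed the threshold, Itgb1 stood at 0.96, and the values of opposite sign were Itga1 0.41, Itga4 1.68, Itga8 0.13, Lama3 0.55 and Lamb3 1.37.

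Leaving out each pool in turn, the sign changed within these ranges: Itga1 -1.03 to 1.07, Itga3 -0.0842 to 0.98, Itga4 -1.24 to 3.14, Itga6 -0.20 to 0.44, Itga7 -0.21 to 0.65, Itga8 -1.69 to 1.10, Itga9 -1.21 to 0.12, Itga10 -1.04 to 0.58, Itgb3 -1.06 to 6.38, Itgb7 -2.02 to 0.55, Lama1 -2.77 to 0.42, Lama3 -0.66 to 1.46, Lama4 -0.44 to 0.59, Lama5 -0.21 to 1.27, Lamb1 -0.88 to 1.33, Lamb2 -0.10 to 0.36, Lamb3 -0.77 to 2.90, Lamc3 -0.51 to 1.96 and Ltbp4 -2.31 to 0.12. Without molecular identifiers the number of molecules behind a level was not measured, so the counting error is not known. The precision of these values can be read only from the spread between pools and libraries.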
